A study of Homo sapiens with 6 samples.

Results

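The mature miRNA entries described here come from 3 human genome positions where a miRNA hairpin is annotated on each strand of the same DNA: miR-423 opposite miR-3184, miR-7 opposite miR-3529, and miR-642a opposite miR-642b. They are 8 of the 1247 entries of the count table, taken by name: hsa-miR-423-5p, hsa-miR-423-3p, hsa-miR-3184-3p, hsa-miR-3184-5p, hsa-miR-7-5p, hsa-miR-3529-3p, hsa-miR-642a-3p and hsa-miR-642b-5p, with the prefix hsa for human left out below. They were selected on their pooled control and shWDR4 counts, so their counts and folds are given as a description without a test. The RNA was that of exosomes, vesicles shed into the medium, of H1299, an established human lung cancer line of the non-small cell type. One group came from cells stably expressing a control short hairpin RNA and the other from cells stably expressing shWDR4, a short hairpin RNA against WDR4, the partner protein of the methyltransferase METTL1. The genotype label of both groups is wild type, and all cells were grown with 10% fetal bovine serum and then kept 48 h in exosome-free M10 medium. Each group had 3 libraries, labelled as independent biological repeats, which the deposited table joins into 1 count column. The spread between repeats is therefore unknown, and each difference below compares pooled columns. The labels do not say whether a shRNA line was 1 clone.

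A miRNA is cut from a folded hairpin transcript, first by Drosha and then by Dicer. The cut leaves a short duplex of the 5p arm and the 3p arm, and usually only 1 of them is kept in an Argonaute protein, where bases 2 to 8, the seed, choose the target mRNA. Because a hairpin is nearly complementary to itself, its reverse complement can fold as well, and some DNA stretches carry an annotated miRNA on both strands. miR-423-5p is widely measured in blood plasma, miR-7-5p is typical of neuroendocrine and islet cells and represses the growth factor receptor EGFR, and miR-642a-3p is known from fat cells. miR-3184, miR-3529 and miR-642b are the annotations on the facing strand.

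The mature sequences show which entries can be read from the same stretch of DNA. They are given from RefSeq on GRCh38.p14, 5′ to 3′, with the seed in capitals, and all 8 members matched by name.
miR-423-5p: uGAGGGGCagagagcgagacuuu
miR-3184-3p: aAAGUCUCgcucucugccccuca
miR-423-3p: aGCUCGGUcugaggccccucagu
miR-3184-5p: uGAGGGGCcucagaccgagcuuuu
miR-7-5p: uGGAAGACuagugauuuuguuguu
miR-3529-3p: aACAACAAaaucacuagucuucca
miR-642a-3p: aGACACAUuuggagagggaacc
miR-642b-5p: gGUUCCCUcuccaaaugugucu

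The sequence of miR-3184-3p is the reverse complement of miR-423-5p over all 23 bases. The same holds for miR-3529-3p and miR-7-5p over 24 bases and for miR-642b-5p and miR-642a-3p over 22 bases. The 2 arms of each such pair have different seeds although they lie on the same bases of DNA. By contrast miR-423-5p and miR-3184-5p, which lie at different positions and on opposite strands, share their first 8 bases and with them the seed GAGGGGC. No further mature miRNA of the RefSeq table has that seed.

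The arms of the miR-423 and miR-3184 hairpins are shown in capitals to make their positions in the folded RNA visible. MIR423 lies on the plus strand at chr17:30117079-30117172 and MIR3184 on the minus strand at chr17:30117086-30117160.
MIR423: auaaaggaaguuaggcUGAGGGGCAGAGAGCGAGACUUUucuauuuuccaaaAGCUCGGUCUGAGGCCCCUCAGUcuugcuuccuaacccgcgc
MIR3184: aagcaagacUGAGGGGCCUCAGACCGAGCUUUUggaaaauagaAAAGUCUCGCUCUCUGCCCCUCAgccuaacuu

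All 75 bases of MIR3184 lie within MIR423. In GENCODE release 29 the position falls in NSRP1, a gene of splicing regulation on the plus strand, and overlaps an exon of at least 1 of its transcripts. On the minus strand, that of MIR3184, it also lies in an exon of AC104984.5, annotated as a sense intronic RNA, and in an intron of the antisense RNA AC104984.2. MIR642A, on the plus strand at chr19:45674928-45675024, holds all 77 bases of MIR642B, on the minus strand at chr19:45674932-45675008. Both lie in an intron of GIPR, the receptor of an incretin hormone. MIR7-2, on the plus strand at chr15:88611825-88611934, holds all 78 bases of MIR3529, on the minus strand at chr15:88611847-88611924, and no other annotated gene overlaps them.

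The miR-7-5p sequence is found at 3 positions, and only that in MIR7-2 faces miR-3529. The others are MIR7-1 at chr9:83969748-83969857 on the minus strand, which overlaps an exon of HNRNPK, an RNA-binding protein gene, and MIR7-3 at chr19:4770670-4770779 on the plus strand, in an intron of the noncoding gene MIR7-3HG. Against which build and annotation the authors counted is not stated, so these positions are those of the reference alone.

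**Figure D1:**
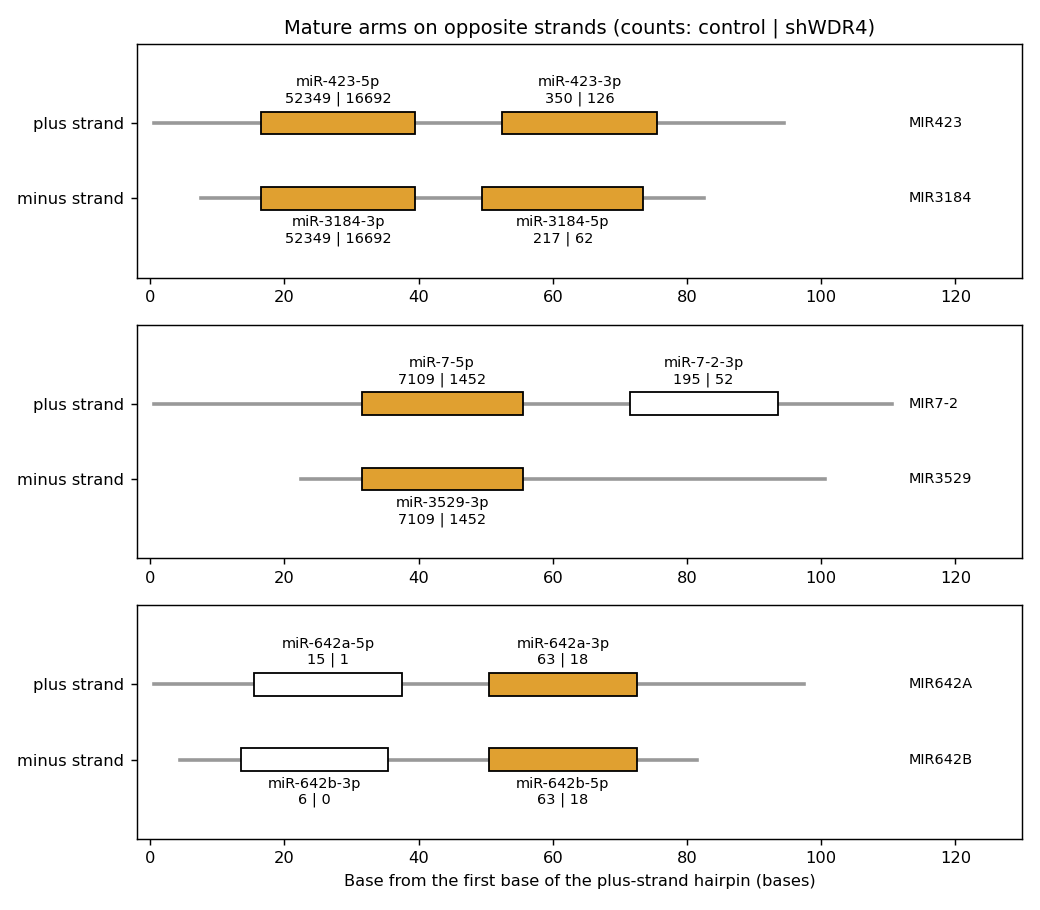
Each panel shows an opposite-strand hairpin pair as grey lines and its mature arms as boxes, by distance in bases from the first base of the plus-strand hairpin. Filled boxes are members, open boxes are further arms of the same hairpins, and each label gives the control and shWDR4 counts. Facing boxes with the same ends carry equal counts, and facing boxes that are shifted carry different ones.

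The 8 members held only 5 distinct pairs of counts. miR-423-5p and miR-3184-3p each had 52349 counts in control and 16692 in shWDR4. miR-7-5p and miR-3529-3p each had 7109 and 1452, and miR-642a-3p and miR-642b-5p each had 63 and 18. In these 3 facing pairs the entries were equal in both columns, so the counts do not show which strand the reads came from. The remaining members, miR-423-3p with 350 and 126 counts and miR-3184-5p with 217 and 62, face each other and were not equal.

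Equal counts in both columns occurred for 18 of the 349 entries whose columns summed to 50 counts or more (5.16%), and 6 of those 18 were members. The other 12 included miR-103a-3p and miR-103b, which also face each other, and copies of 1 family such as miR-365a-3p and miR-365b-3p. They also included miR-940, which had the same 63 and 18 counts as miR-642a-3p and miR-642b-5p without being their neighbour, and the pair of miR-105-3p and miR-4763-5p at 16 and 39. At such depths unrelated entries can have equal counts, so equality is a firmer observation for miR-423-5p and miR-7-5p than for miR-642a-3p. With at least 200 counts, 6 entries had a partner with equal counts, and 4 of them were members.

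The facing pairs were sorted by how their arms lie on the DNA. Across RefSeq, 43 different pairs of mature arms overlapped on opposite strands, by 18 to 24 bases. Of these, 8 pairs had the same start and end on both strands: in 6 both arms were in the count table, in the other 2 neither was, and all 6 measured pairs had equal counts. The 6 are the 3 member pairs, miR-103a-3p with miR-103b at 6466 and 1644 counts, miR-374c-3p with miR-374b-5p at 19 and 2, and miR-550a-3p with miR-550b-2-5p at 0 and 1. The remaining 35 pairs were shifted by at least 1 base at an end, and of these 4 had both arms in the count table. Counts differed in 3 of the 4. The exception was miR-3130-5p with miR-3130-3p, each with 0 and 4 counts. At so few counts neither this pair nor that of miR-550a-3p can tell equal from unequal entries, and 3 of the 6 equal pairs are the members, selected on these counts.

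In 11 of the shifted pairs only 1 arm was among the entries of the table, and in 4 of these the listed arm had at least 50 counts. These were miR-122-5p with 2182 counts in control and 379 in shWDR4, facing miR-3591-3p, miR-7-2-3p with 195 and 52, facing miR-3529-5p, miR-374b-3p with 144 and 36, and miR-550a-5p with 147 and 29. The pairs with the same ends that are no members and had more than a few counts were thus those of miR-103a-3p and miR-374c-3p. How the authors assigned reads to arms, and whether they used the strand, is not stated, and its part in the equality was not tested.

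**Figure D2:**
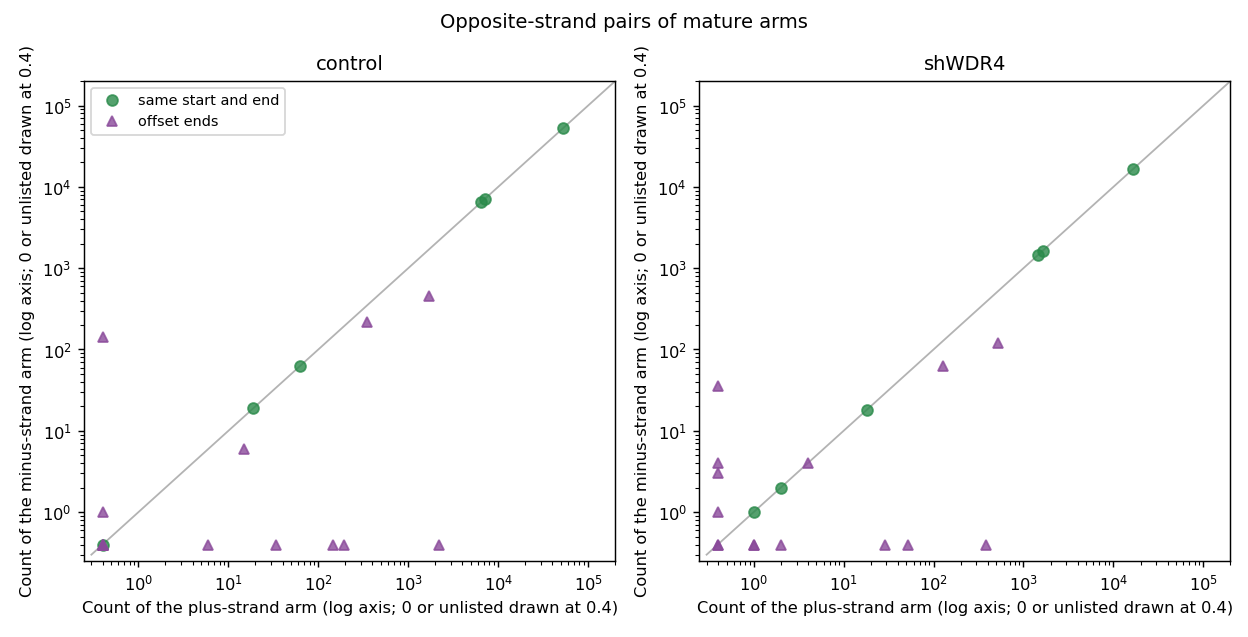
Each point is a pair of mature arms that overlap on opposite strands, with the count of the plus-strand arm on the x axis and of the minus-strand arm on the y axis, both on log axes, for control (left) and shWDR4 (right). Circles are the 6 measured pairs with the same start and end, which all lie on the grey line of equal counts, and triangles are shifted pairs, which lie off it or at the edge where an arm has no count, apart from the pair at 4 counts in shWDR4 and pairs at 0.

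The locus of miR-423 and miR-3184 was among the most abundant of the exosomes. The miR-423-5p entry ranked 5 in control and 7 in shWDR4, ties sharing a rank. Its share was 5.13% in control (exact 95% interval 5.09 to 5.17) and 3.02% in shWDR4 (2.97 to 3.06). This is 51308 against 30189 counts per 1000000 (CPM), 1.70-fold lower in shWDR4 (1.67 to 1.73). The value of miR-3184-3p is the same number and not a further observation. Intervals here and below reflect counting error alone, because the pooled columns hold no spread between repeats. They also take reads as independent, which PCR copies of a molecule are not, so they may be too narrow even for counting error. In pooled exosome RNA, fewer vesicles of a kind and less miRNA per vesicle cannot be told apart.

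The other side of the hairpin held few counts. miR-423-3p made up 0.664% of the counts of both miR-423 arms in control (0.597 to 0.737) and 0.749% in shWDR4 (0.624 to 0.891), so about 150 and 132 reads of miR-423-5p were listed for each of miR-423-3p. The ratio of the 3p to the 5p arm was 1.13 times as high in shWDR4 as in control (0.913 to 1.39), an interval that includes no difference. Such ratios between entries of the same column do not depend on how the columns are scaled.

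The facing arms miR-423-3p and miR-3184-5p are the only members that differ from their opposite entry. Their shared bases are in capitals below, which shows that miR-423-3p has 2 bases beyond the shared 21 and miR-3184-5p has 3.
miR-423-3p: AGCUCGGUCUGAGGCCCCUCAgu
miR-3184-5p: UGAGGGGCCUCAGACCGAGCUuuu

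In control 38.3% of the counts of these facing entries were listed for miR-3184-5p (34.3 to 42.4), and in shWDR4 32.98% (26.3 to 40.2). Both entries were lower in shWDR4. miR-423-3p went from 343 to 228 CPM, 1.51-fold lower (1.22 to 1.86), and miR-3184-5p from 213 to 112 CPM, 1.90-fold lower (1.42 to 2.56). The ratio of miR-3184-5p to miR-423-3p was 0.794 times as high in shWDR4 (0.550 to 1.14). At this depth the folds of the facing entries could thus not be told apart. The shares and this ratio take the reads of both entries as separate, which was not tested.

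**Figure D3:**
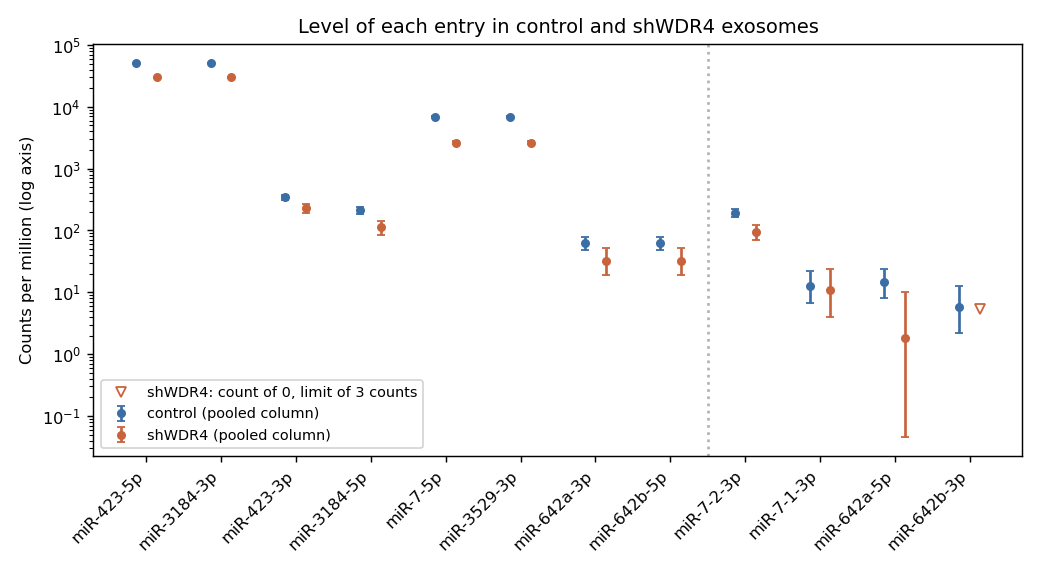
Level of each entry in CPM on a log axis in the pooled control and shWDR4 columns. Points are the pooled values and bars exact 95% intervals of counting error. Members stand left of the dotted line and further arms of the same hairpins right of it. An open triangle marks the limit that a count of 0 allows. The 8 members lie between 61.7 and 51308 CPM in control, and each is lower in shWDR4.

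The locus of miR-7 and miR-3529 showed the largest fold of the members. miR-7-5p took 0.697% in control (0.681 to 0.713) and 0.263% in shWDR4 (0.249 to 0.276), a level of 6968 against 2626 CPM. It was 2.65-fold lower in shWDR4 (2.51 to 2.81) and ranked 24 in control and 45 in shWDR4. The value of miR-3529-3p is again the same number. Relative to miR-423-5p, miR-7-5p was 1.56-fold lower in shWDR4 (1.47 to 1.66), whatever the scaling of the columns.

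Arms that belong to a single miR-7 hairpin were much rarer than the shared 5p arm. miR-7-2-3p, the only other listed arm of the hairpin that faces miR-3529, had 195 and 52 counts, 2.03-fold lower in shWDR4 (1.49 to 2.82). miR-7-1-3p, from the HNRNPK gene, had 13 and 6 counts, a fold of 0.852 in shWDR4 (0.265 to 2.40) that includes no difference. For each miR-7-2-3p read there were 36.5 reads of miR-7-5p in control and 27.9 in shWDR4, and the ratio of 3p to 5p was 1.31 times as high in shWDR4 (0.937 to 1.79). Since miR-7-5p is the same from all 3 hairpins, its counts cannot be divided among them. The full miR-7-5p count nevertheless stands for miR-3529-3p too, which faces the MIR7-2 copy alone.

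The locus of miR-642a and miR-642b held few counts. miR-642a-3p went from 61.7 to 32.6 CPM, 1.90-fold lower in shWDR4 (1.11 to 3.40), and ranked 243 in control and 349 in shWDR4. The opposite arms were rarer still. miR-642a-5p had 15 counts in control and 1 in shWDR4, a fold of 0.123 (0.00292 to 0.7996). miR-642b-3p had 6 and 0 counts, or 5.88 CPM in control, and the exact upper limit of its fold, 1.57, leaves no direction at this depth. These facing arms are shifted by 2 bases at each end and were unequal, 15 against 6 in control.

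The near self-complementarity of this hairpin makes its 3p arms almost the same on both strands. Printed with the base that differs in capitals, they differ by A20C, counted from 1 at the 5′ end of miR-642a-3p, and match at 21 of 22 bases.
miR-642a-3p: agacacauuuggagagggaAcc
miR-642b-3p: agacacauuuggagagggaCcc

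Their counts were 63 against 6 in control and 18 against 0 in shWDR4. The entries are thus listed apart although they share the seed GACACAU, which no other mature miRNA of the RefSeq table has. How reads with a mismatch were placed was not tested.

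Counted once, the loci held far less than the table lists. The 8 entries as listed summed to 11.7% of control and 6.60% of shWDR4. With each set of equal entries taken once, the 3 loci held 60088 counts or 5.89% of control (5.84 to 5.94) and 18350 counts or 3.32% of shWDR4 (3.27 to 3.37). Of the control counts 52916 were listed for the members of miR-423 and miR-3184, 7109 for those of miR-7 and miR-3529, and 63 for those of miR-642a and miR-642b. These sums cover the members alone, so miR-7-2-3p, miR-642a-5p and miR-642b-3p are not in them. The facing entries miR-423-3p and miR-3184-5p, which overlap by 21 bases, are both summed in full. Whether they share reads was not tested. The miR-7-5p counts cannot be divided among its 3 positions, so part of the 7109 may come from elsewhere. Counted once, miR-423 and miR-3184 together were 1.70-fold lower (1.67 to 1.73), close to that of its main entry. Counting entries once leaves the fold of a locus nearly as it was and changes its share.

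The column totals contain the repeated entries as well. Across the table, 6 entries repeat a facing arm with the same ends, and together they add 66006 counts or 6.47% of the control total and 19809 counts or 3.58% of the shWDR4 total. Without these repeats the totals are 954276 and 533104, and the 3 loci counted once take 6.30% and 3.44%. The repeats weigh more in control, so that with totals counted once every log2 fold moves by -0.044. The log2 fold of miR-423-5p then goes from -0.77 to -0.81 and that of miR-7-5p from -1.41 to -1.45.

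All 8 members were lower in shWDR4 with scaling to the column totals, and 2 were past 2-fold, miR-7-5p and miR-3529-3p, which are 1 set of counts. Among the 349 evaluated entries 60.5% were lower by any size, 31.5% were lower past 2-fold and 26.1% higher past 2-fold. With upper-quartile scaling these were 43.3% lower and 21.8% higher, and without miR-3960, miR-6126 and miR-7704 they were 14.04% and 33.5%. Counted once, 1 of 5 members was past 2-fold with column totals, 4 of 5 with upper-quartile scaling and 0 of 5 without the 3 entries. The selection used these values, so nothing is read from the counts of members beside those shares. The median log2 fold of the 5 was -0.92, beside -0.37 for the 349 entries. Of those entries, 38.7% had a lower log2 fold than miR-423-5p and 20.9% a lower one than miR-7-5p.

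The size of these differences depends on 3 entries that are no members. miR-3960, miR-6126 and miR-7704 together took 0.774% of control but 37.3% of shWDR4, which lowers the share of every other entry in shWDR4. With all 3 left out of the totals, the log2 fold of miR-423-5p was -0.10, that of miR-423-3p turned to 0.073, and that of miR-7-5p was -0.74, no longer past 2-fold. With upper-quartile scaling all members but miR-423-3p were past 2-fold, miR-423-5p and miR-3184-3p at -1.15, miR-3184-5p, miR-642a-3p and miR-642b-5p at -1.30 and miR-7-5p and miR-3529-3p at -1.79. The lower value of miR-423-3p thus did not hold under every scaling, while the point values of the other members were lower under all those tried. The counting interval of miR-642a-3p and miR-642b-5p included no difference with trimmed mean of M values (TMM) scaling. It also did so without miR-3960, alone or with the other 2 entries. That of miR-423-3p did so in both of the latter settings, and that of miR-3184-5p without all 3. For the further arms miR-7-2-3p and miR-642a-5p, the upper log2 limits with column totals were -0.58 and -0.32. Leaving out all 3 entries shifts each log2 fold by 0.66, so both intervals then include no difference.

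**Figure D4:**
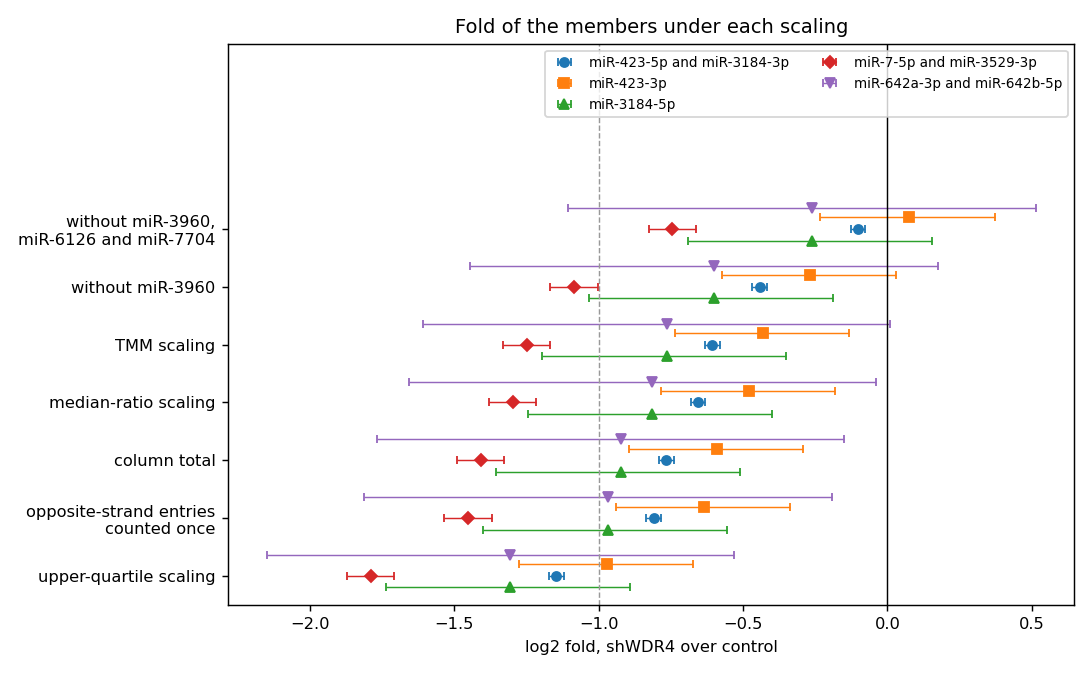
The log2 fold of shWDR4 over control on the x axis for the 5 distinct count pairs of the members, with exact 95% intervals of counting error, under each scaling on the y axis. The solid line marks no difference and the dashed line a 2-fold lower value. The points keep their distances and shift together, and miR-423-3p crosses the solid line without miR-3960, miR-6126 and miR-7704.

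The authors' deposited table treats facing entries as separate results. It marks 2 of the 8 members, miR-7-5p and miR-3529-3p, as lower in shWDR4, each with a normalized log2 fold of 1.41 of control over shWDR4 and a q-value written as 0. Of all entries, 10.8% are marked lower in the authors' deposited table. The 135 lower entries of the authors' deposited table include 2 facing pairs with the same ends and equal counts, miR-7-5p with miR-3529-3p and miR-103a-3p with miR-103b, and would be 133 with each taken once. The authors' deposited table gives miR-423-5p a normalized log2 fold of 0.77 and a q-value written as 0, below its 2-fold requirement.

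The entries nearest to each locus in log2 fold were taken from 108 other entries with at least 1000 counts, compared over the 2 pooled columns. The loci differ in fold, so their nearest entries differ as well. Nearest to miR-423 and miR-3184 counted once were miR-3182, miR-130b-3p and miR-24-3p, within 0.068. Nearest to miR-7 and miR-3529 were miR-130a-3p, miR-16-5p and miR-320b, within 0.011. Nearest to miR-642a and miR-642b were miR-31-5p, miR-320a-3p and miR-3135b, within 0.022. The counting interval of the miR-642a and miR-642b locus, -1.77 to -0.15, is far wider than that distance. With a pattern of 2 values, many entries are about equally near.

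Column totals were 1020282 for control and 552913 for shWDR4. Of the markers of the labelled lung cancer cells, miR-31-5p had 9631 and 2780 counts, a log2 fold of -0.91 with column totals. miR-21-5p had 2028 and 462, a log2 fold of -1.25. The 3 epithelial markers summed to 91 and 16 counts, or 89.2 and 28.9 CPM. With column totals, 5 of the 7 markers of blood, liver, vessels and smooth muscle were lower in shWDR4, beside 60.5% of the 349 evaluated entries. The 7 summed to 13505 CPM in control and 3142 CPM in shWDR4. Of these, the 2 vascular and smooth muscle markers took 10746 and 2232 CPM. Most of that was miR-126-3p, with 9954 counts in control and 1153 in shWDR4. Of the 4 blood markers, 2 were lower in shWDR4, and together the 4 took 620 CPM in control against 224 CPM in shWDR4. The lower ones were miR-486-5p, with 509 and 100 counts (log2 fold -1.46), and miR-142-3p, with 100 and 3 (-4.18). The red cell marker miR-451a was at 0 in control and 3 in shWDR4. For miR-150-5p, counts of 24 and 18 gave a log2 fold of 0.47, higher in shWDR4 by CPM. The neuroendocrine marker miR-375-3p, of a cell type where miR-7-5p is abundant, was lower in shWDR4 as well, with 49 and 2 counts, or 48.0 and 3.62 CPM. All samples are exosomes of the H1299 line. The source of these marker counts, and its part in the lower member values, that of miR-7-5p included, was not tested. The transcript of WDR4 is not measured by this assay, so the knockdown was not checked here.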

How the data were processed

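Small RNA libraries from exosomes were made by adaptor ligation, amplification and size selection, per the labels' protocols. Per the submitters' processing notes, the tools included Bowtie, Trim Galore, FastQC, edgeR and SAMtools, with no role or version given. The deposited values are whole-number read counts per mature miRNA, with the 3 libraries of a group joined in 1 column, per the file headers, and not normalized. The log2 folds and the p-values and q-values are those the authors deposited for these pooled columns. For strand setting, genome build and molecular identifiers nothing is stated.

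CPM are counts divided by the column total times 1000000, and folds are shWDR4 over control with exact (Clopper-Pearson) 95% intervals, conditional on the summed counts. Ratios of ratios have exact conditional intervals. A 0 entered medians as 3 counts. With no value per library, the planned edgeR test was not run and no p-value was computed. Scale factors came from edgeR 4.0.16, and folds and intervals were tested on simulated data. Of the 1247 entries 1115 matched the RefSeq table by name. Arms were called facing where their positions overlap on opposite strands. The position of miR-7-5p in MIR7-2 was found by matching its sequence to that hairpin. The text names the members, further arms of their hairpins, the facing pairs with most counts and the 3 entries nearest in fold. Other entries with equal counts, such as miR-940, miR-3130-5p, miR-374c-3p and miR-550a-3p, were chosen after their values were seen. The members and lists were chosen with earlier results of these data known.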

Additional observations from a re-analysis of the deposited data

How the results depend on the processing

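No paired analysis was possible because the 3 libraries of each group are joined in 1 column, and for the same reason no library could be left out. Scaling moved the log2 fold of every member by the same amount. For miR-423-5p and miR-3184-3p it was -0.77 with column totals, -0.61 with TMM, -0.66 with median-ratio and -1.15 with upper-quartile scaling, -0.44 without miR-3960, -0.10 without miR-3960, miR-6126 and miR-7704, and -0.81 with opposite-strand entries counted once. The locus of miR-423 and miR-3184 counted once gave -0.76, -0.61, -0.65, -1.15, -0.44, -0.10 and -0.81 in the same order. For miR-7-5p, miR-3529-3p and their locus it was -1.41, then -1.25 with TMM, -1.30 with median-ratio and -1.79 with upper-quartile scaling, -1.08 without miR-3960 and -0.74 without the 3 entries. For miR-423-3p it was -0.97 with upper-quartile scaling, -0.27 without miR-3960 and 0.073, reversed, without the 3 entries. For miR-3184-5p it was -0.26 without the 3 entries. The value of miR-642a-3p and miR-642b-5p stayed within its wide counting interval in every setting, as did all members with 0.5 or 5 counts added. Entries past 2-fold lower, 110 or 31.5%, became 68 or 32.7% with a minimum of 200 counts, 17.6% of 1247 with no minimum, 23.1% of 949 with at least 1 column above 3 counts (a limit added after seeing the data), 58 or 16.6% past 3-fold and 49 or 14.04% without the 3 entries. Entries past 2-fold higher, 91 or 26.1%, became 151 or 30.1% with a minimum of 20, 48 or 23.1% with a minimum of 200, 402 or 32.2% with no minimum and 339 or 35.7% with at least 1 column above 3 counts. Entries with equal counts, 18 at a minimum of 50, were 57 at 20 and 6 at 200. These shifts follow from the totals and minimums used. Depth limits the locus of miR-642a and miR-642b most, at 81 counts over both columns.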

Other observations

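Of the 23 other entries that face an annotated arm on the opposite strand, 8 had at least 50 counts, and these 8 were lower in shWDR4 exosomes under every scaling tried. With column totals 60.5% of the 349 evaluated entries were lower by any size. Past 2-fold lower were 7 of the 8 with column totals, beside 31.5% of the 349. With TMM it was 2 beside 26.6%, with median-ratio scaling 3 beside 28.1%, and with upper-quartile scaling 8 beside 43.3%. Without miR-3960 it was 2 beside 22.6%, and without miR-3960, miR-6126 and miR-7704 0 beside 14.04%. In shWDR4 alone, miR-374b-3p and miR-550a-5p had fewer than 50 counts, at 36 and 29. Of the 15 with fewer counts, 7 were lower in shWDR4 by CPM and 8 higher, the higher ones including miR-3130-5p, miR-3130-3p and miR-3191-5p, each with 0 and 4 counts. The median log2 fold of the 8 was -1.09 with column totals, beside -0.37 for the 349 evaluated entries. The 8 are not independent, since miR-103a-3p and miR-103b have the same counts. With equal counts taken once, 6 of 7 were past 2-fold lower with column totals. They are also not all apart from the members, since miR-7-2-3p is an arm of the MIR7-2 hairpin. miR-122-5p, the main miRNA of hepatocytes, went from 2139 to 685 CPM, and miR-24-3p, of the miR-23, miR-27 and miR-24 clusters, from 1675 to 940 CPM.

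The facing arms miR-24-3p and miR-3074-5p overlap by 20 bases and are shifted by 1 base at one end and 2 at the other. They had 1709 and 452 counts in control and 520 and 120 in shWDR4. The part of both counts that was listed for miR-3074-5p was 20.9% in control (19.2 to 22.7) and 18.8% in shWDR4 (15.8 to 21.99). As with miR-423-3p and miR-3184-5p, both arms of a shifted pair were listed, in unequal numbers. miR-24-3p is also annotated in another hairpin, so its counts cannot all be assigned to this position.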
